A study of Homo sapiens with 8 samples.

Results

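The genes described here are 43 NRF2 targets and antioxidant enzymes, chosen by name from the 25411 genes listed in each library, and all 43 were found. They were followed across 8 RNA-Seq libraries of BEAS-2B cells, a human lung epithelial cell line, with 2 libraries in each of 4 groups. Untreated cells (UT) received no nickel. Nickel-exposed cells (Ni-E) were grown with 100 μM NiCl2 over 6 weeks. In the washed-out group (Ni-W) cells were exposed alike, then cloned from single cells in nickel-free medium and had been without nickel for more than 6 months, so that the group is a population derived from 1 clone. The libraries named HCl3 carry the same treatment text as Ni-W, exposure followed by isolation of single-cell clones, but their labels give no time without nickel and do not say how HCl3 relates to Ni-W. The labels place Ni-E in experiment 2 and the HCl3 libraries in experiments 3 and 4, and give no experiment number for UT or Ni-W, so experiment and group cannot be told apart. A difference between UT and a clonal population likewise cannot be told apart from a difference between clones.

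NRF2, encoded by NFE2L2, is a transcription factor that KEAP1 holds in the cytoplasm and passes to a ubiquitin ligase for degradation. Oxidants and electrophiles modify KEAP1, NRF2 then escapes degradation, enters the nucleus with a small MAF partner and binds antioxidant response elements in the promoters of its targets. The targets make glutathione, supply NADPH, reduce quinones and carbonyls, and conjugate and export toxicants, and NRF2 protein can change without any change in its mRNA, which is what was measured here.

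Libraries held between 26383920 and 45692298 counted reads. The epithelial keratin genes KRT7, KRT8 and KRT18 were each at 144 RPKM or more in every library, whereas TP63 had no read and KRT5 had at most 3. Among the other epithelial markers, CDH1 was at 0.11 RPKM or less, KRT19 at 0.78 or less and EPCAM at 1.79 or less in every library. KRT17 ran from 3.47 to 23.93 RPKM. RPKM are reads scaled to transcript length and to the mapped reads of a library, and they allow levels of different genes to be compared. The summed RPKM of the 9 epithelial markers ran from 606 to 639 for UT, 603 to 804 for Ni-E, 968 to 993 for Ni-W and 957 to 1019 for HCl3, with TP63 at 0 throughout. Nearly all of each sum was KRT7, KRT8 and KRT18. The 4 airway secretory, ciliated and alveolar markers in the files summed to at most 0.08 RPKM in any library. The 8 fibroblast markers summed to between 325 and 670 RPKM, nearly all of it COL1A1 and THY1, and DCN was at 0. The part of these markers in the changes below was not tested. In bulk RNA, fewer cells expressing a gene and less RNA per cell cannot be told apart.

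The antioxidant response element was looked for in RefSeq promoter windows (GRCh38.p14), which run from 250 bases before to 50 bases after each annotated start and were held for 34 of the 43 genes. HMOX1, SLC7A11, PRDX1, PRDX6, ABCC1, ABCC3, AKR1B10, GSR and SOD1 had no entry. The core searched was TGACNNNGC on either strand. It was present in 10 of the 49 windows of these genes (20.4%), against 13.3% of all 35116 windows. With a trailing A the shares were 14.3% and 3.18%. The matches that lie wholly before the start are shown because they are the stretches that hold the searched letters. Capitals mark the core, on the gene's strand in the 5′ to 3′ direction, so a match on the opposite strand reads GC first.
GCLM, chr1:93909446-93909475, opposite strand: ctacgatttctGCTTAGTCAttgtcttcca
PGD, chr1:10398852-10398881, opposite strand: gcctcgccgggGCAATGTCAtctaggtgct
EPHX1, chr1:225825265-225825294, same strand: atgagattggcTGACTTGGCaggactgtgc
ME1, chr6:83431170-83431199, same strand: atctcctgccaTGACTCAGCgcttctcgca
GSTP1, chr11:67583735-67583764, same strand: ggccggcgccgTGACTCAGCactggggcgg
TXNRD1, chr12:104215669-104215698, same strand: tacacgggctaTGACTTCGCtgttgtcacc
TXNRD1, second promoter, chr12:104286919-104286948, opposite strand: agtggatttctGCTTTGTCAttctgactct
GPX2, chr14:64942849-64942878, opposite strand: gacctgtttttGCTAAGTCAtcctggggat
KEAP1, chr19:10502807-10502836, same strand: gacttttattgTGACACGGCgggcgcccgg
KEAP1, chr19:10502784-10502813, opposite strand: cgcccggctctGCTTAGTCAtggtgacctg
The middles of these matches lay between 27 and 197 bases before the start. In KEAP1 the printed stretches overlap. A match is a description of letters, not of binding.

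NQO1 and GSTM2, both of which were higher in Ni-W and HCl3 than in UT, had no core in these windows. The same held for AKR1B1, AKR1C3, GPX3 and SOD3, the other genes with windows that were called changed against UT below. For NQO1 and GSTM2 the 250 bases before the start are shown with the GC box, GGGCGG on either strand, in capitals. This box was present before the start in 77.6% of the windows of these genes and in 42.6% of all windows. Sequence outside these windows was not examined.
NQO1, chr16:69726561-69726810, minus strand: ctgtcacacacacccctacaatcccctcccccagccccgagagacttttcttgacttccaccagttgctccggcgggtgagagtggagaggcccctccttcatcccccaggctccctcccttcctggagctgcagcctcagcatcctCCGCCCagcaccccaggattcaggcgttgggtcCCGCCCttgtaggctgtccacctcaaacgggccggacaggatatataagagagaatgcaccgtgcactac
GSTM2, chr1:109667807-109668056, plus strand: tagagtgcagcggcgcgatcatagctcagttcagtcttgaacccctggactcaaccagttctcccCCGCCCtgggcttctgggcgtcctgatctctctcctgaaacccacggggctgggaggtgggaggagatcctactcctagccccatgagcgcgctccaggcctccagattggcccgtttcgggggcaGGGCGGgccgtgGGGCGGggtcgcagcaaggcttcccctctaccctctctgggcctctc

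BEAS-2B cells expressed much of the antioxidant machinery at high levels before any nickel. In UT, 17 of the 43 genes were at 100 RPKM or more, 15 lay from 1 to 100 and 11 were under 1. PRDX1, a peroxiredoxin that reduces hydrogen peroxide, was the highest, with 770.22 and 684.05 RPKM in the UT libraries. SOD1, the cytosolic superoxide dismutase, followed with 564.72 and 474.15 RPKM. At the other end AKR1B10 and AKR1C2 had no read in UT, and GPX2, the gastrointestinal glutathione peroxidase, had 1 read in all 8 libraries together. The count of genes under 1 RPKM was 11 for Ni-E, 7 for Ni-W and 6 for HCl3. The libraries of a group were compared on log2 counts normalized for library size by DESeq2, over the 37 genes at 1 RPKM or more in at least 1 group. The median absolute difference was 0.14 for UT, 0.11 for Ni-E, 0.12 for Ni-W and 0.07 for HCl3.

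**Figure D1:**
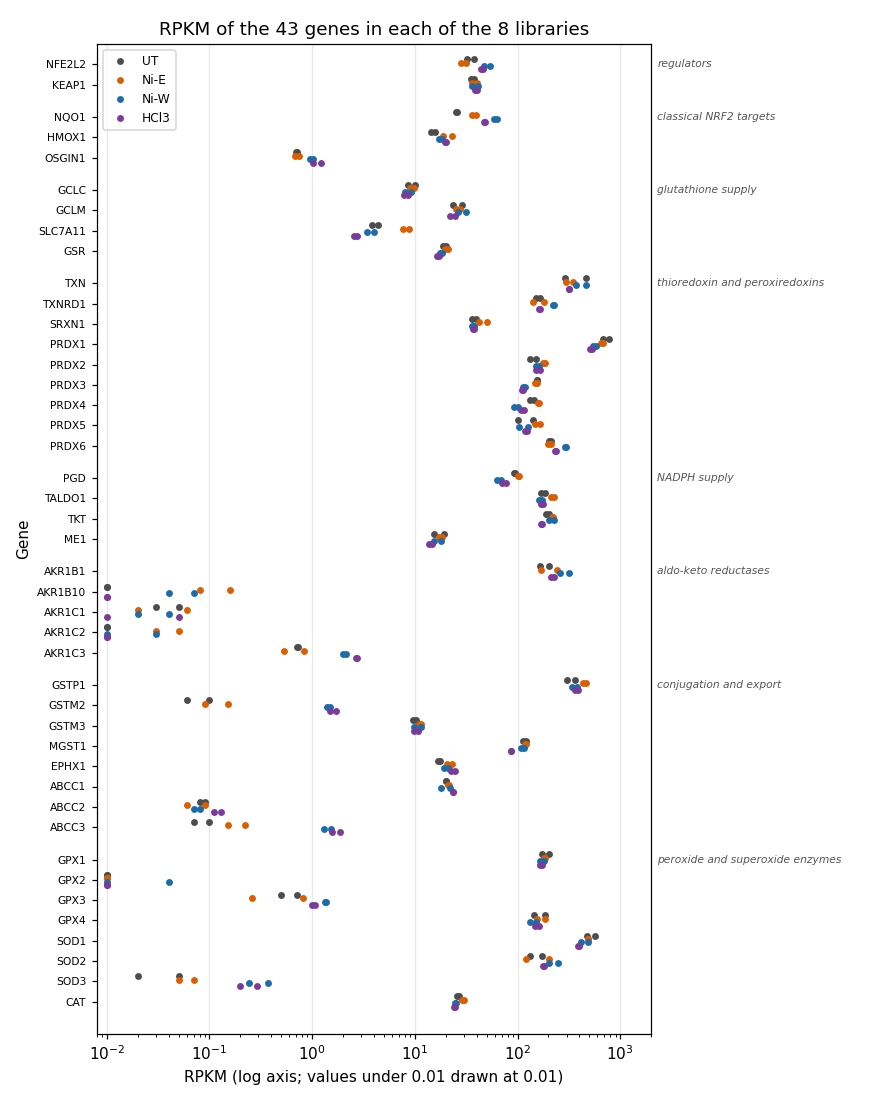
RPKM of the 43 genes on a log axis, grouped by role, with 1 point for each library of UT, Ni-E, Ni-W and HCl3 and values under 0.01 drawn at 0.01. Most genes keep their place across groups, while GSTM2 and ABCC3 move from at most 0.22 RPKM in UT and Ni-E to at least 1.31 RPKM in Ni-W and HCl3.

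During exposure SLC7A11 was the 1 member called changed. A gene was called changed at an adjusted p under 0.05 in DESeq2 together with a change of at least 1.5-fold. In Ni-E against UT, 1 of 38 tested members was called higher, SLC7A11, where 3.75% of all tested genes were called higher. None was called lower, where 2.05% of all tested genes were. For this 0, edgeR also called 0 lower, and 10 members were at an unadjusted p under 0.05 in either direction. The median log2 change was 0.00 over the tested members and -0.00 over all tested genes.

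After wash-out NQO1, AKR1C3, GSTM2 and ABCC3 were called higher in both groups. In Ni-W against UT, 7 of 41 tested members were called higher, where 10.9% of all tested genes were. These were NQO1, AKR1B1, AKR1C3, GSTM2, ABCC3, GPX3 and SOD3. None was called lower, where 4.83% of all tested genes were; edgeR also called 0 lower, and 17 members were at an unadjusted p under 0.05 in either direction. In HCl3 against UT, 4 of 40 tested members were called higher, where 11.1% of all tested genes were, and these were NQO1, AKR1C3, GSTM2 and ABCC3. SLC7A11 was the 1 member called lower, where 3.74% of all tested genes were. At an adjusted p under 0.05 whatever the fold, 11 members were higher and 4 lower in Ni-W, where 17.5% of all tested genes were higher and 13.6% lower. In HCl3 7 members were higher and 10 lower at that threshold, where 17.1% of all tested genes were higher and 14.3% lower. The median log2 change of tested members was 0.05 in Ni-W and -0.03 in HCl3, against 0.01 over all tested genes in each. The 3 comparisons share the UT libraries, so their values are given side by side and are not independent of each other. With 2 libraries against 2, an exact permutation test of a single gene cannot go below 0.333, and the p-values rest on the spread that DESeq2 shares across genes.

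**Figure D2:**
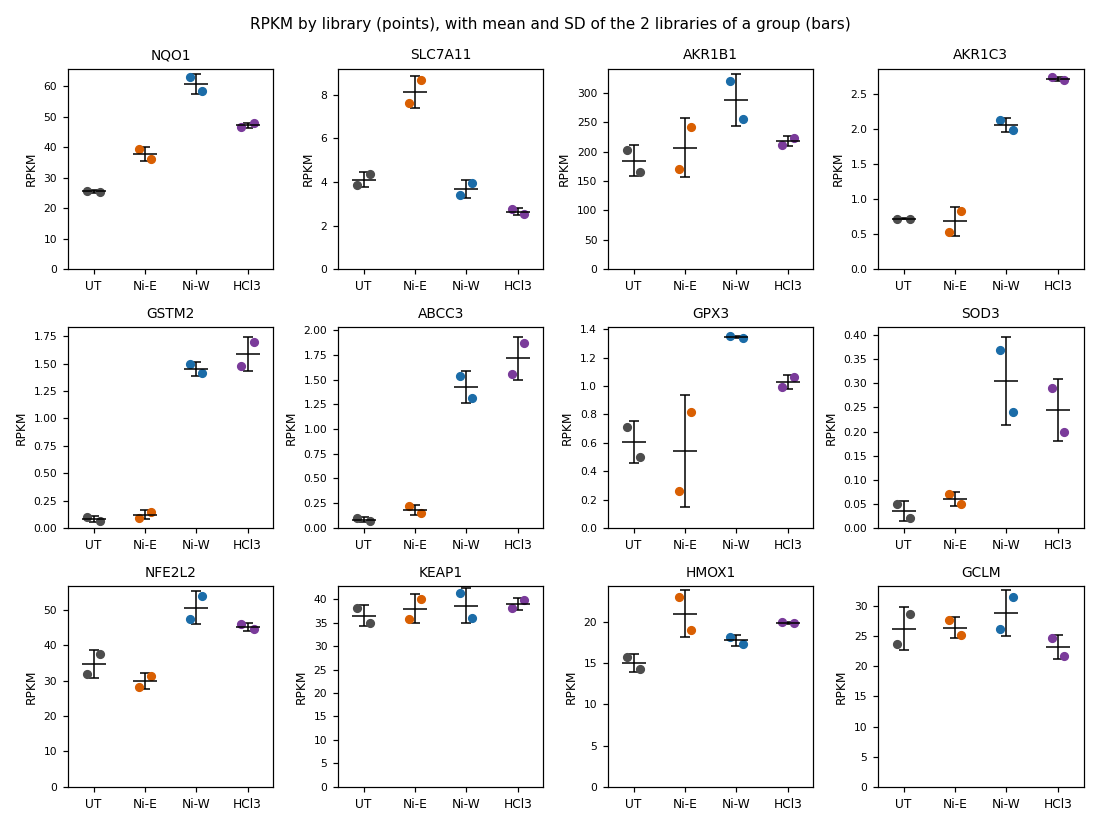
RPKM by library for the 8 members called against UT in at least 1 group and for NFE2L2, KEAP1, HMOX1 and GCLM, with points for libraries and bars for the mean and SD of the 2 libraries of a group. SLC7A11 peaks in Ni-E at 7.63 and 8.67 RPKM, whereas NQO1 is highest in Ni-W at 62.99 and 58.57 RPKM and KEAP1 stays between 35.02 and 41.28 RPKM.

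Of the regulators, the mRNA of NRF2 differed between groups by the test and that of KEAP1 did not pass it. NFE2L2 (chr2:178095031-178129859, minus strand, hg19) was at 31.91 and 37.51 RPKM in UT, at 28.20 and 31.37 in Ni-E, at 47.33 and 53.89 in Ni-W and at 45.96 and 44.45 in HCl3. All Ni-W and HCl3 libraries lay above all UT and Ni-E libraries. Against UT its log2 fold change was 0.50 ± 0.12 (SE) in Ni-W, with a DESeq2 adjusted p of 0.000284, and 0.33 ± 0.11 in HCl3 (adjusted p = 0.0102), both under 1.5-fold. In Ni-E it was -0.27 ± 0.13 (adjusted p = 0.154). Over the alternatives the change ran from 0.39 to 0.62 in Ni-W and from 0.21 to 0.45 in HCl3. Neither kept an adjusted p under 0.05 under every alternative. Without UT replicate 2 or without Ni-W replicate 1 the change in Ni-W passed the fold threshold, at 0.62 and 0.61. KEAP1 was at 38.05 and 35.02 RPKM in UT, at 35.78 and 40.13 in Ni-E, at 41.28 and 36.00 in Ni-W and at 38.14 and 39.92 in HCl3. The UT range overlapped those of Ni-E and Ni-W, and the HCl3 libraries lay just above both UT libraries. Its log2 fold changes against UT were -0.00 ± 0.12 for Ni-E, 0.05 ± 0.12 for Ni-W and 0.04 ± 0.10 for HCl3, with adjusted p of 0.989, 0.826 and 0.814.

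Of the classical NRF2 targets, NQO1 rose in both wash-out groups. It encodes a quinone reductase that turns quinones into hydroquinones without a radical step. NQO1 (chr16:69743304-69760571, minus strand, hg19) was at 25.79 and 25.21 RPKM in UT, at 39.52 and 36.11 in Ni-E, at 62.99 and 58.57 in Ni-W and at 46.59 and 47.82 in HCl3. The groups did not overlap, in the order UT, Ni-E, HCl3 and Ni-W. Against UT the log2 fold change was 1.22 ± 0.11 in Ni-W (2.33-fold, DESeq2 adjusted p = 1.32e-28) and 0.83 ± 0.10 in HCl3 (1.78-fold, adjusted p = 5.24e-16). In Ni-E it was 0.51 ± 0.12 (adjusted p = 0.000544), which is 1.43-fold and under the fold threshold. The Ni-E value ran from 0.43 without Ni-E replicate 1 to 0.59, past that threshold, without Ni-E replicate 2. It did not keep an adjusted p under 0.05 under every alternative. The call in Ni-W held under every alternative run, and that in HCl3 under all but the 2-fold threshold.

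HMOX1 and OSGIN1 moved less. HMOX1, heme oxygenase, which opens heme to biliverdin, was at 15.73 and 14.24 RPKM in UT, at 22.96 and 18.95 in Ni-E, at 18.18 and 17.28 in Ni-W and at 19.92 and 19.78 in HCl3. Every nickel library lay above both UT libraries. Its log2 fold change against UT was 0.43 ± 0.16 in Ni-E (DESeq2 adjusted p = 0.0536), 0.21 ± 0.14 in Ni-W (adjusted p = 0.275) and 0.35 ± 0.13 in HCl3 (adjusted p = 0.0241, under 1.5-fold). The change in Ni-E ran from 0.21 to 0.58 over the alternatives, and was 0.22 after correction of each library for GC content and length. OSGIN1, an oxidative stress-induced growth inhibitor, ran from 0.68 to 1.21 RPKM and was not called in any comparison with UT.

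In glutathione supply, the cystine importer was called against UT and the genes of the synthetic enzyme were not. SLC7A11, the transport subunit of the exchanger that brings in cystine for glutathione synthesis, was at 3.85 and 4.35 RPKM in UT, at 7.63 and 8.67 in Ni-E, at 3.39 and 3.97 in Ni-W and at 2.74 and 2.53 in HCl3. The Ni-E libraries lay above all others, the HCl3 libraries below all others, and Ni-W overlapped UT. SLC7A11 (chr4:139085248-139163503, minus strand, hg19) had a log2 fold change against UT of 0.94 ± 0.13 in Ni-E (1.91-fold, DESeq2 adjusted p = 1.46e-10), -0.19 ± 0.14 in Ni-W (adjusted p = 0.32) and -0.69 ± 0.13 in HCl3 (1.61-fold lower, adjusted p = 8.92e-07). The call in HCl3 was lost after correction of each library for GC content and length, at -0.52. The gene shares its locus with the antisense gene SLC7A11-AS1, which was at 0.1 RPKM or less.

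GCLC and GCLM encode the catalytic and modifier subunits of glutamate-cysteine ligase, the rate-limiting enzyme of glutathione synthesis. GCLC was at 8.53 and 9.93 RPKM in UT, at 8.89 and 9.76 in Ni-E, at 8.03 and 9.17 in Ni-W and at 8.51 and 7.91 in HCl3. GCLM was at 23.67 and 28.73 RPKM in UT, at 27.63 and 25.15 in Ni-E, at 26.15 and 31.56 in Ni-W and at 24.66 and 21.77 in HCl3. For both subunits the UT range met that of Ni-E and of Ni-W. No log2 fold change of either against UT exceeded 0.23 in size, and the lowest DESeq2 adjusted p was 0.147. GSR, glutathione reductase, ran from 16.54 to 21.07 RPKM, and in HCl3 its change against UT of -0.27 ± 0.11 (adjusted p = 0.0382) was under 1.5-fold.

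The thioredoxin and peroxiredoxin genes held the highest summed RPKM of the roles, 2220 and 1904 in UT, and no call against UT. TXN, thioredoxin, was at 468.23 and 286.73 RPKM in UT, at 348.79 and 298.75 in Ni-E, at 468.57 and 370.96 in Ni-W and at 316.00 and 319.36 in HCl3. The UT libraries lay further apart than any pair of group means, and their range covered Ni-E and HCl3. The log2 fold change of TXN against UT was -0.28 ± 0.36 for Ni-E (DESeq2 adjusted p = 0.724). For HCl3 it was -0.30 ± 0.34 (adjusted p = 0.567), and for Ni-W 0.12 ± 0.38 (adjusted p = 0.867). The sign depended on the alternative. Without UT replicate 2 the Ni-E and HCl3 changes were lowest, at -0.59 and -0.62, and TXN was then called lower in both. The highest alternative value was 0.12 for each.

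TXNRD1, thioredoxin reductase, was at 149.81 and 164.52 RPKM in UT, at 181.75 and 140.93 in Ni-E, at 223.89 and 222.84 in Ni-W and at 166.59 and 162.02 in HCl3. The Ni-W libraries stood above all others, with a log2 fold change against UT of 0.47 ± 0.10 (DESeq2 adjusted p = 1.52e-05), which is under 1.5-fold. In HCl3 it was 0.01 ± 0.09 (adjusted p = 0.95). SRXN1, which repairs overoxidised peroxiredoxins, was at 35.85 and 39.42 RPKM in UT, at 50.80 and 41.92 in Ni-E, at 36.03 and 37.86 in Ni-W and at 37.64 and 37.18 in HCl3. Its Ni-E libraries were above the others, and the change of 0.25 ± 0.13 did not pass the test (adjusted p = 0.241).

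Among the 6 peroxiredoxins, PRDX1, PRDX3 and PRDX4 had an adjusted p under 0.05 below UT in both wash-out groups. These genes, like the others named in the next sentences, were chosen after their values were seen. PRDX1 was at 585.77 and 544.97 RPKM in Ni-W and 505.40 and 527.95 in HCl3, below the UT values given above. The log2 fold changes of PRDX1 were -0.40 ± 0.10 and -0.55 ± 0.09, those of PRDX3, the mitochondrial form, -0.45 ± 0.10 and -0.51 ± 0.09, and those of PRDX4, the form of the endoplasmic reticulum, -0.56 ± 0.11 and -0.36 ± 0.10. All are under 1.5-fold, and the DESeq2 adjusted p ran up to 0.00212 for PRDX4 in HCl3. PRDX1 overlaps the opposite-strand gene MMACHC, which was at 3.92 RPKM or less. PRDX6, which also reduces phospholipid hydroperoxides, moved the other way in Ni-W, from 204.51 and 210.21 RPKM in UT to 295.84 and 287.24, with a log2 fold change of 0.46 ± 0.09 (adjusted p = 1.6e-05). The summed RPKM of the 6 genes was 1567 and 1413 for UT, 1534 and 1492 for Ni-E, 1391 and 1294 for Ni-W, 1227 and 1284 for HCl3.

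The genes of NADPH supply had no call against UT. PGD, of the pentose phosphate pathway, was at 95.21 and 92.90 RPKM in UT, at 100.81 and 103.37 in Ni-E, at 69.16 and 63.42 in Ni-W and at 71.13 and 77.95 in HCl3. Its log2 fold change against UT was -0.54 ± 0.10 in Ni-W (DESeq2 adjusted p = 2.19e-06) and -0.39 ± 0.10 in HCl3 (adjusted p = 0.000329). Both are under 1.5-fold, though the wash-out libraries lay below all UT and Ni-E libraries. TKT and ME1 were lower in HCl3, by -0.32 ± 0.09 and -0.34 ± 0.13, and also under 1.5-fold. TALDO1 stayed between 160.42 and 227.31 RPKM.

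**Figure D3:**
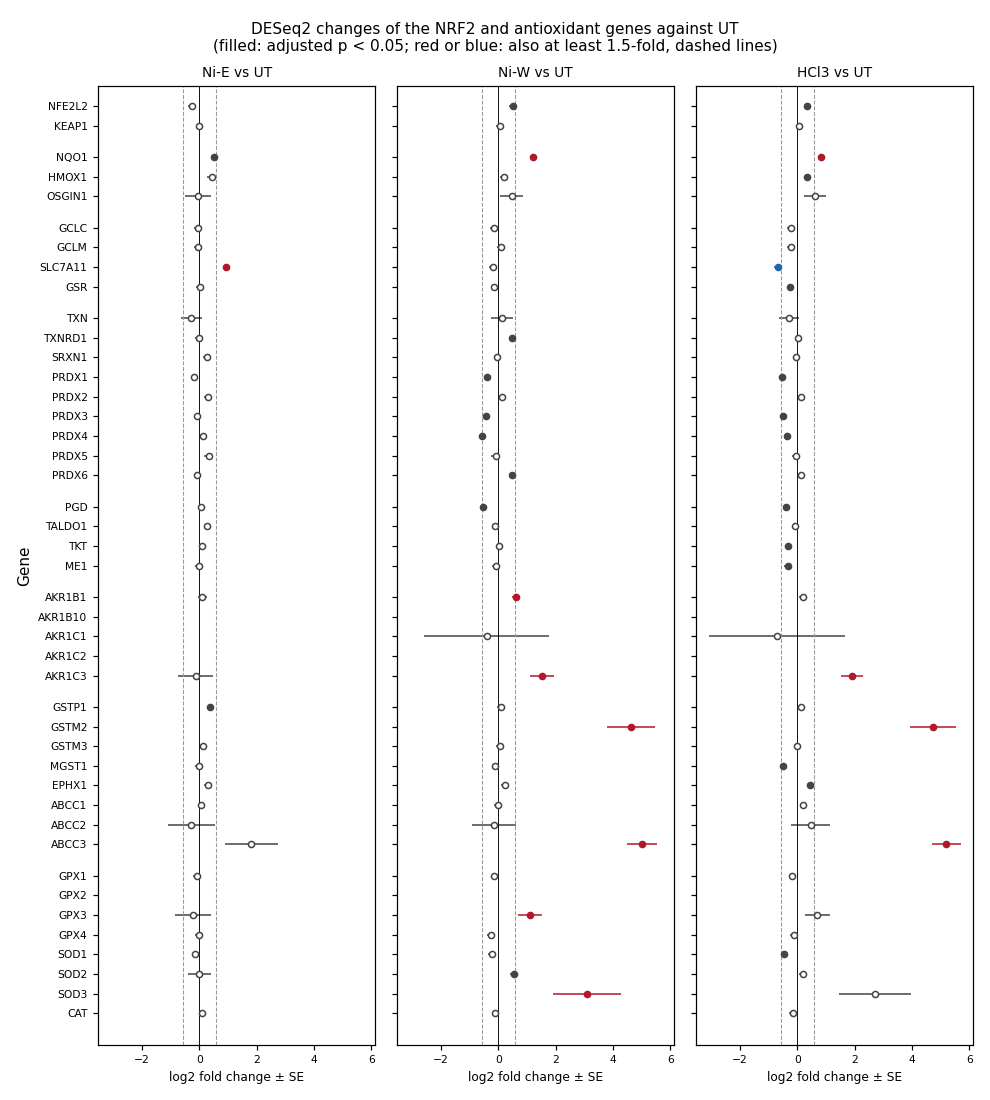
log2 fold change ± SE of each tested member against UT by DESeq2, with filled points at an adjusted p under 0.05 and coloured points also at 1.5-fold or more (red higher, blue lower). AKR1B10, at 0 in UT, is not drawn; the large changes of GSTM2 and ABCC3 stand in Ni-W and HCl3, and SLC7A11 is the single red point in Ni-E and the single blue point in HCl3.

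AKR1C3 was higher after wash-out. It encodes an aldo-keto reductase that reduces steroids, prostaglandins and carbonyls. AKR1C3 was at 0.71 and 0.72 RPKM in UT, at 0.53 and 0.83 in Ni-E, at 2.13 and 1.99 in Ni-W and at 2.74 and 2.70 in HCl3. The wash-out groups lay above UT and Ni-E, which overlapped each other, and HCl3 lay above Ni-W. The log2 fold change against UT was 1.52 ± 0.42 in Ni-W (2.87-fold, DESeq2 adjusted p = 0.00166) and 1.90 ± 0.38 in HCl3 (3.74-fold, adjusted p = 5.86e-06). The call in Ni-W was lost without either Ni-W library, with adjusted p up to 0.203. AKR1B1, aldose reductase, was at 203.26 and 165.88 RPKM in UT, at 170.96 and 242.06 in Ni-E, at 319.53 and 256.32 in Ni-W and at 211.45 and 223.76 in HCl3. Its Ni-W libraries were above all others. The log2 fold change in Ni-W was 0.61 ± 0.13 (1.52-fold, adjusted p = 3.37e-05), and without UT replicate 2 or Ni-W replicate 1 it fell under the fold threshold, with values over all alternatives from 0.45 to 0.76.

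The other aldo-keto reductases were close to silent. AKR1B10 had 0 reads in UT and HCl3, 15 in the Ni-E libraries together and 8 in the Ni-W libraries. Against a floor of 3 reads over the group, Ni-E was at least 4.65-fold and Ni-W at least 2.22-fold higher than UT, without a call in either. AKR1C1 and AKR1C2 had at most 3 reads in any library. AKR1C1, AKR1C2 and AKR1C3 are close paralogs, and since reads with several alignments were removed, their counts may understate them.

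GSTM2 and ABCC3 had the largest called changes of these genes against UT, from levels close to 0. GSTM2, a glutathione S-transferase of the mu class, was at 0.10 and 0.06 RPKM in UT, at 0.09 and 0.15 in Ni-E, at 1.5 and 1.41 in Ni-W and at 1.48 and 1.70 in HCl3. These stand for 4 and 1 reads with UT, 3 and 6 with Ni-E, 92 and 58 with Ni-W, 72 and 87 with HCl3. UT and Ni-E overlapped and both wash-out groups lay far above them. The ratio of summed counts per counted read was 24.9 in Ni-W against UT (exact 95% interval 10.4 to 77.9) and 27 in HCl3 against UT (11.3 to 84.3), intervals that cover counting error only. The DESeq2 adjusted p was 4.99e-07 in Ni-W and 1.13e-07 in HCl3. GSTM2 (chr1:110210644-110226619, plus strand, hg19) belongs to a family of close paralogs whose reads may be split or lost.

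ABCC3, an exporter of glucuronide and glutathione conjugates, was at 0.10 and 0.07 RPKM in UT, at 0.22 and 0.15 in Ni-E, at 1.54 and 1.31 in Ni-W and at 1.56 and 1.87 in HCl3. Reads numbered 9 and 3 for UT, 23 and 22 for Ni-E, 306 and 174 for Ni-W, 258 and 272 for HCl3. The groups did not overlap. The ratio of summed counts per counted read against UT was 3.49 for Ni-E (1.82 to 7.25), 33.2 for Ni-W (18.9 to 64.8) and 37.5 for HCl3 (21.3 to 73). ABCC3 (chr17:48712218-48769063, plus strand, hg19) was called in Ni-W (DESeq2 adjusted p = 6.55e-20) and HCl3 (adjusted p = 5.86e-23), and not in Ni-E (adjusted p = 0.221). It was called in Ni-E when all 8 libraries shared one fit (adjusted p = 0.0069).

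The remaining conjugation and export genes ran from 0.06 RPKM for ABCC2 to 459.09 for GSTP1, with no call against UT. GSTP1, the main transferase of lung epithelium, was at 361.22 and 303.88 RPKM in UT and 435.22 and 459.09 in Ni-E, and its change of 0.37 ± 0.12 in Ni-E (DESeq2 adjusted p = 0.0176) was under 1.5-fold. MGST1, a microsomal transferase, was at 121.24 and 113.61 RPKM in UT and 86.05 and 86.21 in HCl3, a change of -0.51 ± 0.10 (adjusted p = 2.7e-06) that was also under 1.5-fold. EPHX1, epoxide hydrolase, was higher in HCl3 by 0.44 ± 0.12 (adjusted p = 0.0018), and it overlaps TMEM63A on the opposite strand, which was at 8.69 RPKM or less. GSTM3 and ABCC1 had no adjusted p under 0.05 against UT.

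Of the peroxide and superoxide enzymes, GPX3 and SOD3, both secreted, were called higher in Ni-W. GPX3, the plasma glutathione peroxidase, was at 0.71 and 0.50 RPKM in UT, at 0.26 and 0.82 in Ni-E, at 1.35 and 1.34 in Ni-W and at 0.99 and 1.06 in HCl3. The Ni-W libraries lay above all others and Ni-E spread across UT. The log2 fold change in Ni-W was 1.10 ± 0.41 (2.14-fold, DESeq2 adjusted p = 0.0292). SOD3, the extracellular superoxide dismutase, was at 0.05 and 0.02 RPKM in UT, at 0.07 and 0.05 in Ni-E, at 0.37 and 0.24 in Ni-W and at 0.29 and 0.20 in HCl3. The wash-out libraries lay above the others. Its ratio of summed counts per counted read in Ni-W against UT was 8.73 (exact 95% interval 3.17 to 33.5), from 4 reads in UT, with an adjusted p of 0.0343, and in HCl3 the adjusted p was 0.0842. Both calls were lost when any one library was left out.

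The other enzymes of this kind had no call against UT. GPX4, which reduces lipid peroxides in membranes, was at 183.64 and 144.43 RPKM in UT, at 154.62 and 183.84 in Ni-E, at 150.81 and 131.04 in Ni-W and at 148.50 and 162.20 in HCl3. The Ni-E, Ni-W and HCl3 ranges all met that of UT, and the lowest DESeq2 adjusted p of GPX4 against UT was 0.128. SOD2, the mitochondrial dismutase, was at 172.68 and 131.71 RPKM in UT and 247.67 and 204.15 in Ni-W, a change of 0.53 ± 0.14 (adjusted p = 0.000549) under 1.5-fold. SOD1 was at 387.43 and 397.35 RPKM in HCl3, a change of -0.46 ± 0.10 (adjusted p = 5.67e-05) under 1.5-fold. GPX1 and CAT, which also remove hydrogen peroxide, had no adjusted p under 0.05 against UT.

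Against Ni-E, the wash-out groups differed in both directions. In Ni-W, 6 of 41 tested members were called higher, where 11.7% of all tested genes were, and 3 lower, where 8.81% were. ABCC3, AKR1C3, GPX3, GSTM2, NFE2L2 and NQO1 were higher. GPX3 lost the call with the replicate block, and both GPX3 and AKR1C3 lost it without some single libraries. Their log2 fold changes over the alternatives ran from 0.74 to 2.32 for GPX3 and from 1.35 to 1.98 for AKR1C3. SLC7A11, PGD and PRDX4 were lower, and the latter pair lost the call when GC and length trends were removed. For NFE2L2 the log2 fold change was 0.76 ± 0.11 (1.69-fold, DESeq2 adjusted p = 1.64e-11). For SLC7A11 it was -1.14 ± 0.12 (2.21-fold lower, adjusted p = 1.56e-19). PRDX4 was at 161.63 and 156.95 RPKM in Ni-E and 99.92 and 93.27 in Ni-W, a change of -0.72 ± 0.10.

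In HCl3, 3 of 41 tested members were called higher than in Ni-E, where 10.4% of all tested genes were, and 2 lower, where 6.78% were. ABCC3, AKR1C3 and GSTM2 were higher. NFE2L2 lay on the fold threshold, with a log2 fold change of 0.58 ± 0.09 (DESeq2 adjusted p = 3.25e-10), and was called in 6 of 12 refits. SLC7A11 was 3.12-fold lower (log2 fold change -1.64 ± 0.11, DESeq2 adjusted p = 2.13e-51), with libraries at 2.74 and 2.53 RPKM against 7.63 and 8.67. AKR1B10 was at least 5.48-fold lower against the floor of 3 reads over the group, and its call was lost by edgeR, with a mean count of at least 10, with the replicate block and without any one library. At an adjusted p under 0.05 whatever the fold, 17 members were lower and 5 higher in HCl3 than in Ni-E, where 19.2% of all tested genes were lower and 18.4% higher. The 17 include all 4 genes of NADPH supply and 5 of the 6 peroxiredoxins.

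Between the wash-out groups no member was called. In HCl3 against Ni-W, 0 of 39 tested members were called higher, where 3.10% of all tested genes were, and 0 lower, where 1.66% were, by DESeq2 and by edgeR alike. At an unadjusted p under 0.05 there were 17 members, and at an adjusted p under 0.05 there were 11, all of them lower in HCl3 and under 1.5-fold, where 8.10% of all tested genes were lower and 8.45% higher. NQO1, for example, was 1.3-fold lower, and it did not keep an adjusted p under 0.05 under every alternative.

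Other genes were taken from a pathway list of 44. It holds 11 genes of NRF2 partners, repressors and turnover, and 33 other NRF2 targets and general redox genes. In Ni-E against UT 5 of 43 tested were called higher and none lower by DESeq2, while edgeR called 5 higher and 1 lower and 20 were at an unadjusted p under 0.05 in either direction. Of all tested genes 3.75% were called higher and 2.05% lower in this comparison. In Ni-W 6 of 44 were called higher and 1 lower, where 10.9% and 4.83% of all tested genes were. In HCl3 3 of 44 were called higher and 1 lower, where 11.1% and 3.74% were. MAFK, a small MAF partner of NRF2, was at 5.55 and 4.57 RPKM in UT, at 6.68 and 6.48 in Ni-E, at 9.19 and 9.83 in Ni-W and at 10.55 and 9.84 in HCl3. Its log2 fold change against UT was 0.87 ± 0.15 in Ni-W (adjusted p = 1.37e-07) and 0.95 ± 0.14 in HCl3 (adjusted p = 4.53e-10). PIR, pirin, was at 5.04 and 4.28 RPKM in UT, at 5.34 and 9.10 in Ni-E, at 21.73 and 19.43 in Ni-W and at 9.46 and 10.07 in HCl3. All nickel libraries were above UT, and Ni-W was above all others, 4.32-fold over UT. TXNIP, which binds and inhibits thioredoxin, was at 24.54 and 22.22 RPKM in UT, at 23.54 and 29.02 in Ni-E, at 51.65 and 43.08 in Ni-W and at 72.52 and 72.30 in HCl3. It was 1.98-fold higher in Ni-W and 2.98-fold higher in HCl3. GLRX2, the mitochondrial glutaredoxin, was at 61.58 and 53.07 RPKM in UT, at 51.49 and 51.05 in Ni-E, at 35.96 and 37.35 in Ni-W and at 33.33 and 30.43 in HCl3. It was lower by 1.61-fold in Ni-W (adjusted p = 3.77e-06) and by 1.87-fold in HCl3 (adjusted p = 8.1e-11).

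The list genes called in Ni-E were BLVRB, GGT1, GLRX, NFE2L3 and SESN2, and none of them was called in Ni-W or HCl3 against UT. They were named after their values were seen. NFE2L3, a relative of NRF2, was just past the fold threshold in Ni-E, at 0.61 ± 0.14, and just under it in HCl3, at 0.56 ± 0.12 (DESeq2 adjusted p = 1.92e-05). SESN2, sestrin, was at 8.05 and 7.11 RPKM in UT, at 15.31 and 15.50 in Ni-E, at 6.31 and 5.68 in Ni-W and at 6.35 and 6.24 in HCl3. The Ni-E libraries stood above the rest, and the wash-out libraries below UT, by -0.37 ± 0.15 in Ni-W (adjusted p = 0.0353) and -0.32 ± 0.13 in HCl3 (adjusted p = 0.0496), under 1.5-fold. GGT1, which breaks down extracellular glutathione, was at 0.26 and 0.16 RPKM in UT, at 1.07 and 1.11 in Ni-E, at 0.12 and 0.07 in Ni-W and at 0.22 and 0.23 in HCl3. Ni-E was above UT with a DESeq2 adjusted p of 6.6e-05, and the adjusted p of GGT1 was 0.362 in Ni-W and 0.967 in HCl3.

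**Figure D4:**
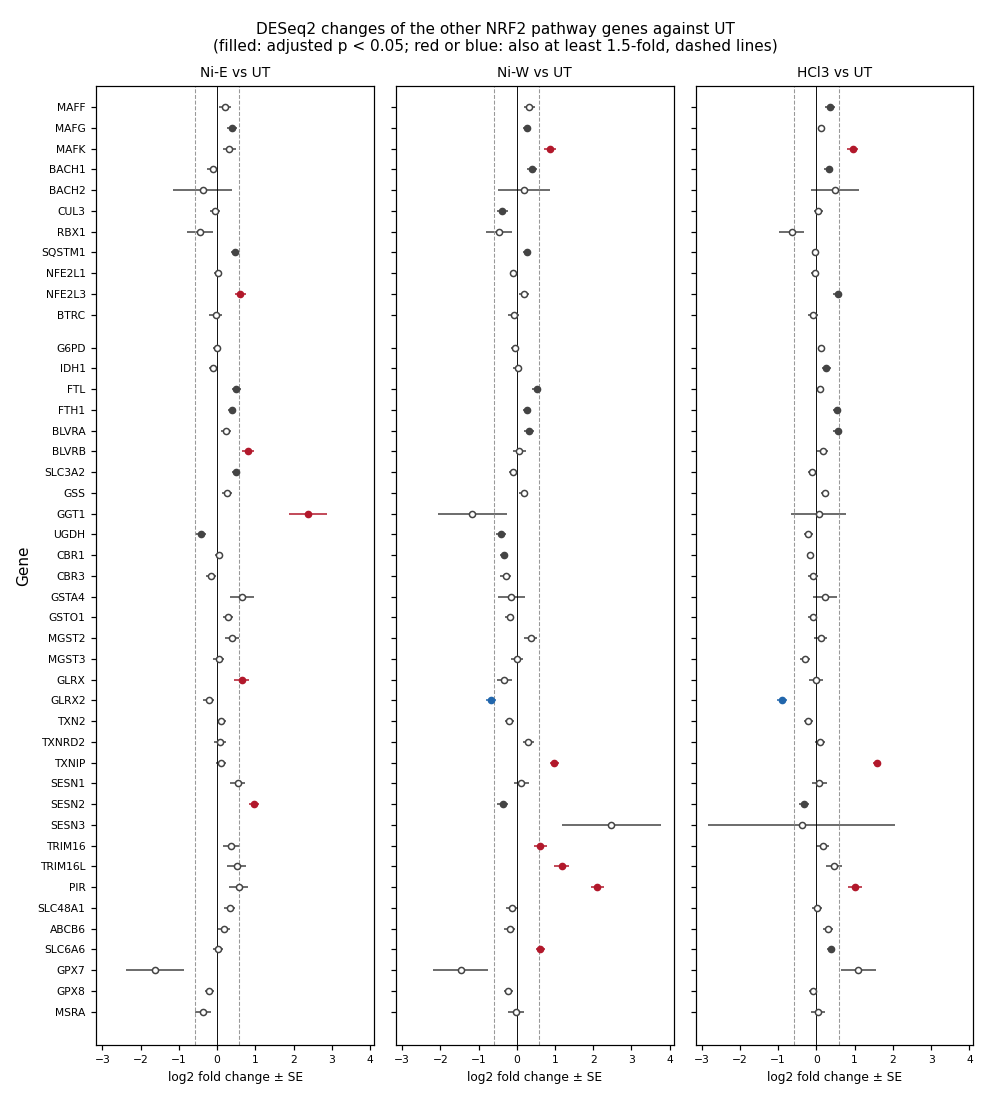
log2 fold change ± SE against UT of the genes of the pathway list, which includes general redox genes, by DESeq2, drawn as for the members. GGT1 and SESN2 are red in Ni-E, MAFK, PIR and TXNIP are red in Ni-W and HCl3, and GLRX2 is blue in both wash-out groups.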

How the data were processed

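RNA-Seq was measured in 8 libraries, 2 for each of 4 groups. The study's methods give 2 biological replicates for RNA-Seq and do not mention HCl3. Per the labels and methods, the authors aligned reads to hg19 with STAR 2.4, removed multi-hits and deposited raw counts per RefSeq gene from BioWardrobe. The deposited RPKM, which the authors derived from these counts, are rounded to 2 decimals. Strand use in counting is not given in the sources used here.

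For each pair of groups, the counts of its 4 libraries entered one DESeq2 1.42.0 fit over all genes in R 4.3.3, with Wald tests (two-sided), the default filter on low counts and p-values adjusted by Benjamini-Hochberg over all tested genes. A call needed an adjusted p under 0.05 and at least 1.5-fold, as in the study's methods. Fits were tested on simulated data. Alternatives were edgeR 4.0.16, other normalizations, filters and fold thresholds, a joint fit, GC and length trends removed, a replicate block and leaving out each library. Intervals and floors cover counting error only. Figures used Python 3.11.15 and matplotlib 3.10.9.

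The members and lists were chosen with earlier results of these data known. Named members are those called against UT plus NFE2L2, KEAP1, NQO1, HMOX1, GCLC, GCLM, SLC7A11, TXNRD1, TXN, SRXN1 and GPX4; of the pathway list, genes called in at least 2 of the 3 comparisons with UT. Any other gene was named after its values were seen.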

Additional observations from a re-analysis of the deposited data

Results flagged for a closer look

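HCl3 and Ni-W share the wash-out treatment text, and the difference between them was tested directly by DESeq2. It passed an adjusted p under 0.05, under 1.5-fold, for 11 members, each lower in HCl3. The log2 difference, HCl3 minus Ni-W, was -0.50 ± 0.12 (SE) for SLC7A11, -0.46 ± 0.06 for TXNRD1, -0.42 ± 0.10 for TXN, -0.42 ± 0.09 for AKR1B1 and -0.40 ± 0.08 for MGST1. It was -0.38 ± 0.08 for NQO1, -0.34 ± 0.08 for TKT, -0.34 ± 0.09 for SOD2, -0.33 ± 0.11 for GCLM, -0.32 ± 0.07 for PRDX6 and -0.22 ± 0.08 for SOD1. Over all tested genes 8.45% were higher and 8.1% lower in HCl3 at this threshold. Of the 11 members, SLC7A11, TXN, AKR1B1, NQO1 and GCLM did not keep an adjusted p under 0.05 under every alternative, while TXNRD1 did. The differences of these genes stayed below 0, with GCLM from -0.47 to -0.18 and TXN from -0.57 to -0.25.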

How the results depend on the processing

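Each group has 2 libraries, so leaving one out leaves a lone library that is assumed to vary like the others. Low genes (GSTM2, SOD3 and ABCC3 in UT) rest on 5, 4 and 12 reads. The libraries of a group differed along GC content (Spearman rho of replicate 2 minus 1 from -0.485 in UT to 0.371 in HCl3). The cause of the changes below was not tested.

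Without a fold threshold the counts of members higher and lower became, against UT, 3 and 0 for Ni-E, 11 and 4 for Ni-W, 7 and 10 for HCl3, 9 higher and 10 lower in Ni-W and 5 higher and 17 lower in HCl3 against Ni-E, and 11 lower in HCl3 against Ni-W. A 2-fold threshold left 0 higher in Ni-E and 0 lower in HCl3 against UT, and 1 lower in Ni-W against Ni-E. One fit of all 8 libraries called 2 higher in Ni-E against UT. With GC and length trends removed, with or without the replicate block, 0 were lower in HCl3 against UT and 1 in Ni-W against Ni-E. HCl3 against Ni-E had 5 higher and 1 lower by edgeR, and 1 lower with a mean count of at least 10, with the replicate block, or with trends removed and the block.

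Leaving out one library gave 1 to 2 higher and 0 to 1 lower in Ni-E against UT, 4 to 6 higher and 0 to 2 lower in Ni-W, 4 higher and 1 to 3 lower in HCl3. Against Ni-E it gave 4 to 8 higher and 2 to 3 lower in Ni-W, and 3 to 5 higher and 1 lower in HCl3. HCl3 against Ni-W had 0 to 1 lower. The lowest count for Ni-W against UT, 4, came without Ni-W replicate 1.

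Same-numbered libraries did not deviate together in all pairs (r from -0.145 to 0.212 over 13856 genes), so the numbers were not taken to pair samples. The replicate block gave 5 members higher in Ni-W against UT, losing GPX3 and SOD3, and 4 in HCl3. A crossed block, chosen after seeing the data, gave 1 higher in Ni-E and 4 in HCl3 against UT. Of 24 called values of named members in 294 refits, 25 lost the call and 0 changed sign. Of 958 refits of 78 uncalled values, 24 gained a call.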
